A study of Mus musculus with 3 samples.

Results

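The aldo-keto reductases are a family of enzymes that reduce aldehydes and ketones to alcohols. Rows of the array table were taken as members when their gene symbol, brought to the current mouse symbol, was 1 of 10 listed names: Akr1a1, Akr1b3, Akr1b7, Akr1b8, Akr1c12, Akr1c13, Akr1c14, Akr1c18, Akr1c21 and Akr7a5. Of these 10 genes, 7 had a row, each a single row with a ratio on all arrays, among 10698 named genes with a row. Akr1b3, Akr1b7 and Akr1c14 had no row under their names and are not analysed here. RNA of whole kidney from 3 BALB/c mice with glomerulonephritis, killed at day 11 after injection of antibody against the glomerular basement membrane (anti-GBM), was labelled with Cy5. Each was hybridised beside Cy3-labelled kidney RNA pooled from 5 normal BALB/c mice. Each of the 3 arrays thus stands for 1 nephritic mouse, the pool is 1 control sample shared by all arrays, and dyes were not swapped.

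Aldo-keto reductases use NADPH or NADH and fold as a barrel with the nucleotide bound at its open end. In the kidney they are best known for the polyol pathway, in which aldose reductase (Akr1b3) turns glucose into the osmolyte sorbitol. Aldehyde reductase (Akr1a1) reduces glucuronate on the way to ascorbate, and the Akr1c enzymes convert steroids and prostaglandins. The proximal tubule, which handles reactive aldehydes and xenobiotics, is a main site of several members. In bulk RNA of whole kidney, fewer cells of a type and less RNA per cell cannot be told apart.

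The mouse Akr1c genes lie side by side on chromosome 13, and the promoter windows of Akr1c12 and Akr1c13 are shown because these 2 genes are close copies. The windows run from 250 bases before to 50 bases after the start of each gene, in RefSeq's GRCm38.p6. Akr1c12 is at chr13:4279350-4279649 on the minus strand and Akr1c13 at chr13:4190937-4191236 on the plus strand. Capitals mark bases that differ between both or face a gap in their alignment.
Akr1c12: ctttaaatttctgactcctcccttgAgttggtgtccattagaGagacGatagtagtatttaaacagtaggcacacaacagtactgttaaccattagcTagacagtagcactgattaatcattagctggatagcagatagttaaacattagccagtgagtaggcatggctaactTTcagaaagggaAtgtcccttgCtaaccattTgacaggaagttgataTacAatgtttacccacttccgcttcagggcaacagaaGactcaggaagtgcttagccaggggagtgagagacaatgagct
Akr1c13: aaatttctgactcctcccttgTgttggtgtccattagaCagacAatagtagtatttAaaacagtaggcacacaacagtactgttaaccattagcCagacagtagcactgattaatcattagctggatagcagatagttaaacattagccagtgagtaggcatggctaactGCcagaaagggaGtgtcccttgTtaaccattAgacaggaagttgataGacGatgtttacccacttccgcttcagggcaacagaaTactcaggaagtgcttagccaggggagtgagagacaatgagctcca
Both windows held 284 identical bases over 296 aligned positions, or 95.9%, with 12 mismatches and 1 inner base facing a gap. Among the 36 pairs of the 9 members with a promoter window in the table (Akr1b3 was not in it), the next pair, Akr1b7 and Akr1b8, shared 161 bases of 300 and the pair after that 42. The sequences spotted on the array were not used here, so the signals of Akr1c12 and Akr1c13, and of other near-identical Akr1c copies, are uncertain where an array sequence could bind both.

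Akr1b8 at chr6:34353896-34354195 and Akr1c21 at chr13:4573825-4574124, both on the plus strand of GRCm38.p6, are shown as the only member windows that held 1 of 4 motifs searched. Both strands were searched. Capitals mark the short motif GTTAAT of HNF1, a transcription factor of the proximal tubule, which both windows carried on the opposite strand.
Akr1b8: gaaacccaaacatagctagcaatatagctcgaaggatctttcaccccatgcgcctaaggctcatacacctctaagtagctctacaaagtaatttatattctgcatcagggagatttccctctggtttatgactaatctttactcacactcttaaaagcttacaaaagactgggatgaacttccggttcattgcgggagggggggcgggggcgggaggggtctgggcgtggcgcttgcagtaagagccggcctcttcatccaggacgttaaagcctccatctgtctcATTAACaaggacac
Akr1c21: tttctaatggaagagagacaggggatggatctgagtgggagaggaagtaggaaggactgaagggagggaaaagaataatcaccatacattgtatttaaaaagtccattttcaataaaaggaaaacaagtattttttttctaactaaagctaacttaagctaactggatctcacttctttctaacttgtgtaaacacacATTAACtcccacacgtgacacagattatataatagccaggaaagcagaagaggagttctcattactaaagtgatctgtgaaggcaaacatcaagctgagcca
The match lay 36 to 41 bases after the start of Akr1b8 and at -52 to -47 from the start of Akr1c21. Of 32851 promoter windows of this length, 7.1% held this motif on either strand, so 2 of 9 windows is a description and no sign of binding. No member window held TGACNNNGC, the core of the antioxidant response element (12.4% of all windows), the AP-1 site TGANTCA (7.81%) or the tonicity-responsive enhancer (4.96%). The first of these motifs can overlap an AP-1 site, which did not arise here because neither matched. Nothing follows from these letters about any factor.

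All values below are log ratios of a nephritic mouse over the control pool, in the deposited log unit, after each array was centred on its median. The base of the logarithm is not given in the sources used here: a value of -1.07 would be a 2.11-fold lower level in base 2 and 2.93-fold lower in natural base. Negative values are read as less RNA in the nephritic mouse. That reading follows from Cy5 marking the nephritic sample, is likely, and is stated by no source for the values themselves. An array gave ratios other than exact 0, which was treated as missing, for 10998 to 11930 of 16281 rows. The genes were proposed with these ratios known, so their values are given as a description. Whether a member passed the threshold over all features is stated only to describe it and supports nothing.

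Of the 7 measured genes, 6 were below 0 in all 3 mice and 1, Akr1b8, was above 0 in all 3. Of all features, 35.4% were below 0 and 33.3% above 0 in all mice. Akr1c18 was the lowest, with a mean of -1.07 ± 0.308 (SD, n = 3), and Akr1b8 the highest, at 0.35 ± 0.0793. The median of the 7 means was -0.54, against -0.00806 over all 8449 features tested. All 7 passed an adjusted p of 0.05 in limma's fit over all features, 6 lower and 1 higher. That threshold was passed by 43.1% of all features, 22.3% lower and 20.8% higher, and nothing is read from the members' count, since the ratios were known when they were chosen. The whole-table count fell from 3638 to 2202 without mouse 3. Akr1c13 did not pass without mouse 2 (-0.40) or without mouse 3 (-0.27), and Akr1c12 passed without mouse 3 (-0.41) only at the threshold. Only Akr7a5 passed when exact 0 was kept as a ratio in the whole table, where 7.45% of all features passed.

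**Figure D1:**
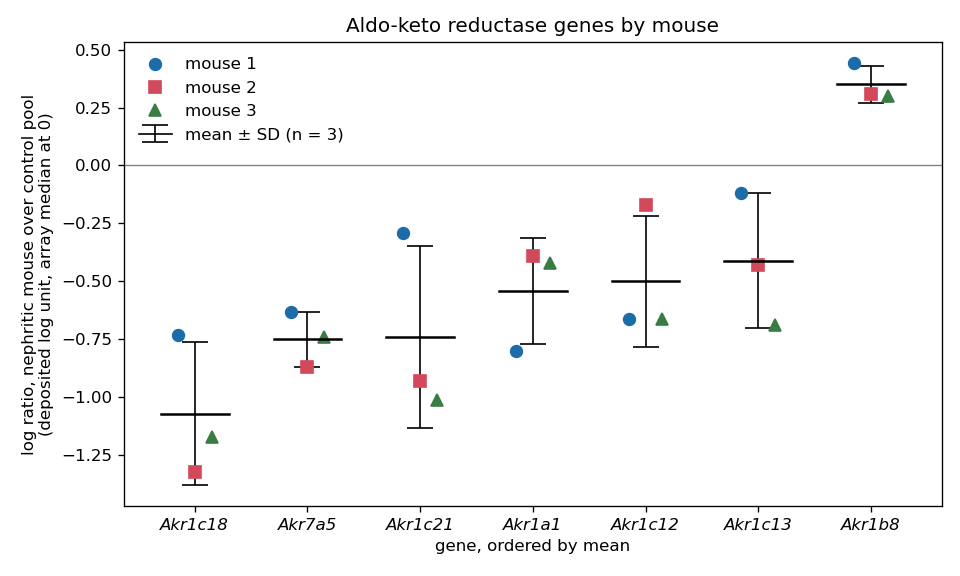
Log ratio (deposited log unit, array median at 0) of each measured aldo-keto reductase gene in mice 1, 2 and 3, with a bar at the mean and whiskers of 1 SD (n = 3). The points of 6 genes lie below 0 in all mice, and those of Akr1b8 lie between 0.30 and 0.44.

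Akr1a1 and Akr7a5, which act mainly on small aldehydes, were both below 0 in every mouse. Akr1a1, aldehyde reductase, which reduces glucuronate and many other aldehydes with NADPH, stood at -0.80, -0.39 and -0.42 in mice 1, 2 and 3. Mouse 1 was the lowest, and the mean was -0.54 ± 0.229 (SD, n = 3). Akr7a5, which reduces succinic semialdehyde and the aldehyde of aflatoxin, was at -0.63, -0.87 and -0.74. Its mean of -0.75 ± 0.117 had the smallest spread among the 6 lower members, and its ratios lay close together in all mice. Both genes lie on chromosome 4. The difference of Akr1a1 minus Akr7a5 was -0.17, 0.48 and 0.32 in the 3 mice, so their order turned in mouse 1 and the means did not differ beyond that spread.

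Akr1b8 was the only measured gene of the aldose reductase branch. It was first known as a protein induced by fibroblast growth factor, and it reduces retinal and aldehydes from lipid peroxidation. Its ratio was 0.44 in mouse 1, 0.31 in mouse 2 and 0.30 in mouse 3, above every other member in every mouse. It lay closest in value to Akr1c13, which it exceeded by 0.76 ± 0.22 (SD, n = 3), and farthest from Akr1c18, which it exceeded by 1.42 ± 0.233. Of all features tested, 86.5% had a lower mean than Akr1b8.

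The 4 measured Akr1c members, enzymes of steroid and prostaglandin conversion, had means from -1.07 to -0.41. Akr1c18, which inactivates progesterone, was at -0.73, -1.32 and -1.17 in mice 1, 2 and 3. Of all features, 1.2% had a lower mean than this gene. Akr1c21, a hydroxysteroid dehydrogenase of the kidney, was at -0.29, -0.93 and -1.01, with a mean of -0.74 ± 0.392 (SD, n = 3). Mice 2 and 3 lay close together for both genes and mouse 1 lay nearer to 0. Akr1c18 was below Akr1c21 in all mice, by a mean of 0.33 ± 0.147.

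The near-copies Akr1c12 and Akr1c13, whose promoters are printed above, had similar means and different patterns over mice. Akr1c12 was at -0.66, -0.17 and -0.66, a mean of -0.50 ± 0.283 (SD, n = 3), with mouse 2 nearest to 0. Akr1c13 was at -0.12, -0.43 and -0.69, a mean of -0.41 ± 0.29, with mouse 1 nearest to 0. Akr1c13 minus Akr1c12 was 0.54, -0.26 and -0.03 in the 3 mice, a mean of 0.08 ± 0.412, so the difference of the means was smaller than its spread over mice.

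Most members differed between mice more than a typical feature did. Their median SD over the 3 mice was 0.283, against 0.121 over all features. The median mean of all features was -0.00806, and features with means as far from 0 as the members' were not compared. The SD of Akr1c21 exceeded that of 97.9% of all features, that of Akr1c18 exceeded 94.3%, those of Akr1c13 and Akr1c12 exceeded 92.9 and 92.3%, and that of Akr1a1 exceeded 85.3%. Akr7a5, at 47.9%, and Akr1b8, at 27.6%, were not spread more than a typical feature. Of the 21 pairs of members, 12 had the same order in all mice, and these fell to 6 of 15 once pairs with Akr1b8 were set aside. In the order of the means, Akr7a5 and Akr1c21 (a difference of 0.00 ± 0.308), Akr1c21 and Akr1a1 (0.20 ± 0.618), Akr1a1 and Akr1c12 (0.04 ± 0.244) and Akr1c12 and Akr1c13 did not differ beyond the SD of their difference. For the neighbours at both ends the mean difference was larger than its SD, and no difference was tested. Akr7a5 exceeded Akr1c18 by 0.10, 0.46 and 0.43 in the 3 mice (0.33 ± 0.2), and Akr1b8 exceeded Akr1c13 by 0.76 ± 0.22.

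**Figure D2:**
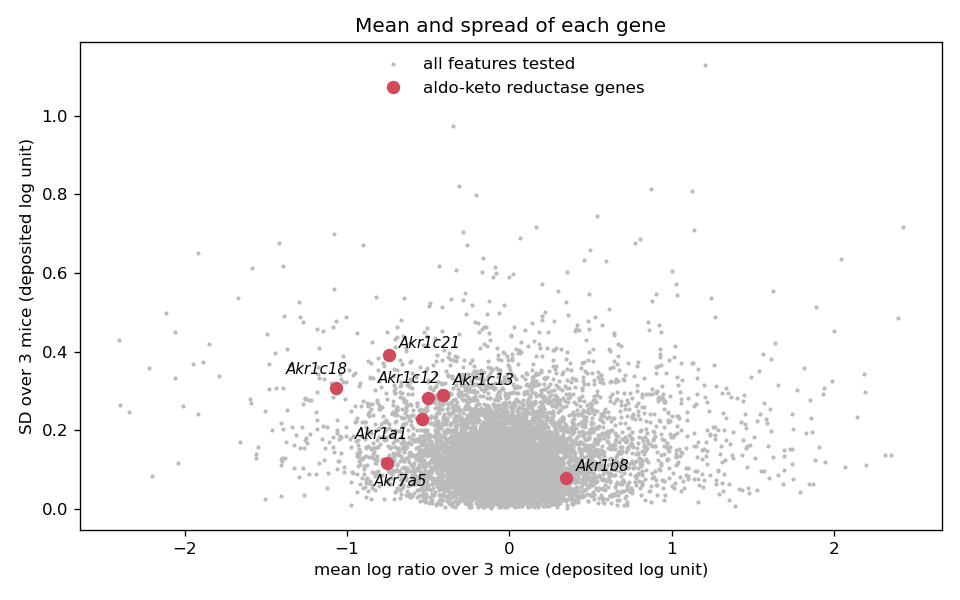
Mean log ratio over 3 mice against its SD (both in the deposited log unit) for all 8449 features tested (grey) and the 7 aldo-keto reductase genes (red). Akr1c18 and Akr1c21 lie far to the left and high. Akr7a5 lies far to the left with an SD of 0.117, near the median of 0.121 over all features, and Akr1b8 is the only member to the right of 0.

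Order along the chromosome was used to set the Akr1c members beside their neighbours. The cluster holds 9 aldo-keto reductase genes in the RefSeq table, in the order Akr1c14, Akr1c18, Akr1c13, Akr1c19, Akr1c12, Akr1c6, Akr1c20, Akr1c21 and Akr1e1. Of these, 6 had ratios on all arrays, and all 6 were below 0 in every mouse, with a median of means of -0.76. Akr1c6, a hydroxysteroid dehydrogenase that makes testosterone and is not among the listed members, was at -0.45, -1.32 and -1.25, a mean of -1.01 ± 0.487 (SD, n = 3; limma, adjusted p = 0.00322). It is the only gene of the cluster with 2 rows, and these stood at -1.06 and -0.96. Akr1e1, an anhydrofructose reductase at the end of the cluster, was at -0.36, -1.07 and -0.90, a mean of -0.78 ± 0.371 (limma, adjusted p = 0.00383).

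Of the 10 protein-coding genes that flank the Akr1c cluster, 5 on each side, 3 were measured, and none of the 3 had a mean below 0. Net1 was at 0.24 ± 0.111 and Pfkp, a phosphofructokinase, at 0.31 ± 0.114, both passing, while Klf6 stood at -0.01, 0.94 and -0.03 and did not pass (limma, adjusted p = 0.231). Mouse 1 was nearest to 0 in 5 of the 6 cluster genes and mouse 2 in 1, Akr1c12. The median of the 6 was -0.40 in mouse 1 and -0.96 in mouse 3, with mouse 2 slightly below mouse 3. Among all features that passed as lower, 51.8% were likewise nearest to 0 in mouse 1. The part of signal shared between near-identical copies was not tested.

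Akr1b8 lies between Akr1b3 and Akr1b10 in the smaller Akr1b cluster on chromosome 6, of which it alone had ratios on all arrays. The 4 measured flanking genes were Chchd3 at -0.03, Exoc4 at 0.12, Bpgm at -0.17 and Agbl3 at -0.67 ± 0.323 (SD, n = 3). Of these 4, Agbl3 passed (limma, adjusted p = 0.00473).

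**Figure D3:**
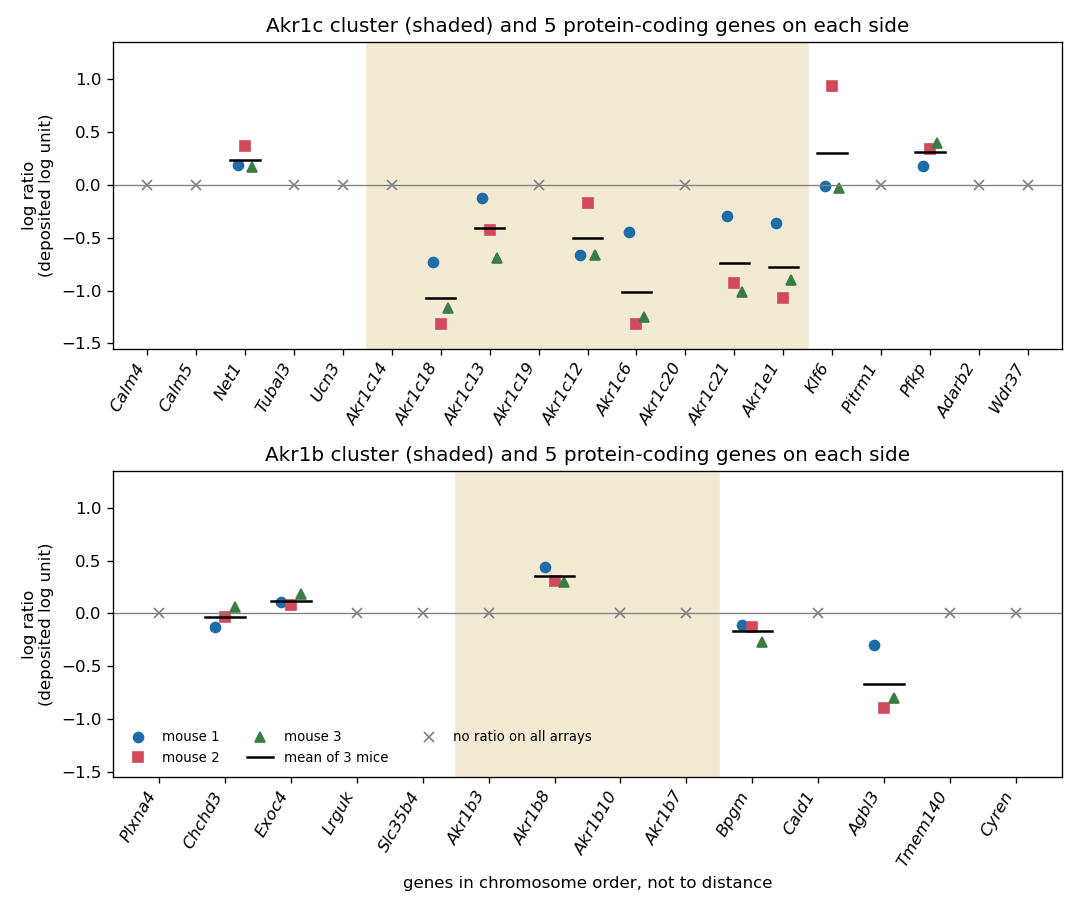
Log ratio (deposited log unit) in mice 1, 2 and 3 of genes in chromosome order for the Akr1c and Akr1b clusters (shaded) and 5 protein-coding genes on each side, with bars at the mean and grey crosses for genes without a ratio on all arrays. All 6 measured genes of the Akr1c cluster lie below 0, while the means of the measured flanking genes Net1, Klf6 and Pfkp lie above 0.

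Other aldo-keto reductases were covered in a list of 10 genes, of which 7 had a row and 4 had ratios on all arrays. Of these, 3 fell and 0 rose, with a median of -0.51, where 22.3% of all features passed as lower. The 3 were Akr1c6 and Akr1e1, given above, and Kcnab2, a potassium channel subunit built on the same fold, at -0.25 ± 0.0428 (SD, n = 3; limma, adjusted p = 0.0228). Kcnab2 lost its call without mouse 2 or mouse 3, and when ratios on 2 arrays sufficed. Its other row, left out of the main fit, was at 0.34 in mouse 1 and -0.06 in mouse 3, with 0 in mouse 2. Kcnab1 did not pass (adjusted p = 0.0503), and its 2 rows disagreed, at 0.03 and -0.42. Akr1c20 and Kcnab3 were 0 on all arrays, and Akr1cl had a ratio, 0.28, in mouse 3 only.

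Companion genes were described by 6 further lists that follow the members' roles, chosen by function with earlier results of these data known. Each list's count stands beside the share of all features that passed, 43.1%, with 22.3% lower and 20.8% higher. In the polyol, fructose and osmolyte list, 2 of 5 measured genes fell and 1 rose, with a median of -0.48. Sord, listed for the polyol pathway, had no ratio on all arrays and Akr1b3 had no row, so neither is in this count. The fructose transporter Slc2a5 was at -1.19 ± 0.226 (SD, n = 3) and Khk, ketohexokinase, at -0.48 ± 0.169. Nfat5, the transcription factor that raises aldose reductase under osmotic stress, was at 0.28 ± 0.0774 and did not pass without mouse 2 or mouse 3. The inositol transporter Slc5a3 was at -1.06, -0.05 and -0.37 in the 3 mice and did not pass (limma, adjusted p = 0.0571), though it passed without mouse 2, so that 3 genes then fell. In the glucuronate and ascorbate list, of genes around the reaction of Akr1a1, 4 of 4 measured genes fell, with a median of -0.39. Cryl1, a gulonate dehydrogenase, was at -0.67 ± 0.378, Ugdh, which makes UDP-glucuronate, at -0.41 ± 0.283 and Rgn, the gluconolactonase of ascorbate synthesis, at -0.38 ± 0.0551.

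Of 10 measured genes for other carbonyl and alcohol reductases, 4 fell and 0 rose, with a median of -0.13, and a like share (43.1%) of all features passed. Cbr2, a carbonyl reductase, was at -1.38, -1.44 and -1.39, the farthest below 0 of all companion genes (-1.41 ± 0.0337, SD, n = 3; limma, adjusted p = 4.03e-05). Ptgr2, a prostaglandin reductase, was at -0.64 ± 0.0813 and Dhrs4, a retinal reductase, at -0.36 ± 0.0819. Of 14 measured genes in a list of steroid and prostaglandin enzymes and the receptor Ptgfr, 4 fell and 2 rose, with a median of -0.09. This count is near the 43.1% of all features that passed. Hsd17b12 was at -0.61 ± 0.081, Hsd17b1 at -0.44 ± 0.204 and the prostaglandin synthase Ptges2 at -0.35 ± 0.151, whose call was lost without mouse 3. Hsd11b1, which regenerates active glucocorticoid, was at 1.05, 0.12 and 0.56 (mean 0.57 ± 0.467) and the prostaglandin D synthase Ptgds at 0.39 ± 0.167. Without mouse 3 the steroid and prostaglandin falls numbered 2, and the rises numbered 3 without mouse 1 or mouse 2.

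Of 8 measured genes of an NADPH supply list, 5 fell and 1 rose, with a median of -0.33, where 43.1% of all features passed. The list also holds genes that do not themselves make NADPH, such as Rpia (-0.40) and Nadk (-0.27), both counted among the falls. G6pdx, H6pd and Idh2 were listed but had no ratio on all arrays. Nnt, the mitochondrial transhydrogenase, was at -0.69 ± 0.25, the malic enzyme Me1 at -0.47 ± 0.13 and Idh1 at -0.42 ± 0.123 (SD, n = 3). Pgd, an enzyme of the pentose phosphate pathway, was at 0.46 ± 0.165. Without mouse 2 the falls numbered 3. NRF2 is the factor behind the antioxidant response element and is known to drive several aldo-keto reductases. Of 16 measured genes of that list, 6 fell and 4 rose, with a median of -0.14, beside the same share of 43.1% over all features. Heme oxygenase Hmox1 was at 0.34, 0.76 and 0.99, a mean of 0.70 ± 0.331, and the inhibitor of NRF2, Keap1, at 0.25 ± 0.0389, which needed both mouse 2 and mouse 3 to pass. Abcc1, a conjugate exporter, was at 1.00 ± 0.235, but its 2 rows disagreed, at 1.83 and 0.18. Osgin1 was at -0.93 ± 0.446, the cystine transporter Slc7a11 at -0.45 ± 0.0775 and the quinone reductase Nqo1 at -0.44 ± 0.26. Without mouse 2 the NRF2 list held 4 falls and 2 rises, and without mouse 3 it held 3 falls and 2 rises. Over all 7 lists, 36 of 61 measured genes passed, 28 lower and 8 higher, where 22.3% of all features passed as lower and 20.8% as higher. Since the lists were chosen with results known, this count supports nothing. Of the 36, 6 also passed with exact 0 kept as a ratio: Cbr2, Ptgr2, Rgn, Hsd17b12, Hsd17b11 and Keap1.

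**Figure D4:**
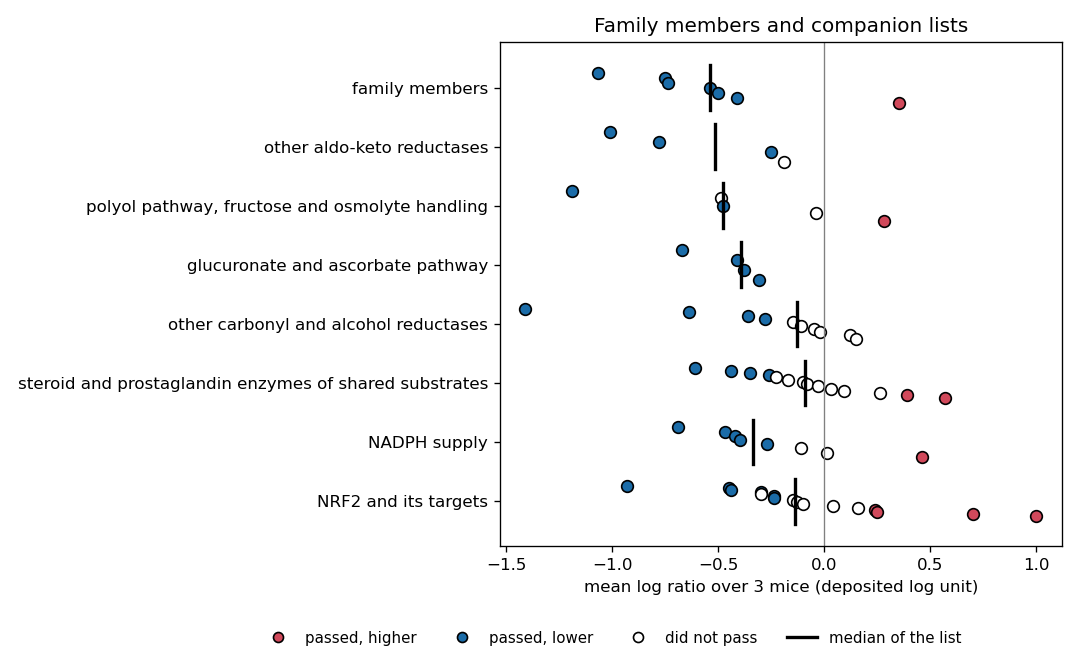
Mean log ratio over 3 mice (deposited log unit) of each measured aldo-keto reductase member and of the genes of 7 companion lists, coloured by whether they passed limma's adjusted p of 0.05 over all features, with a bar at each list's median. The members' median lies at -0.54, and the list medians run from -0.51 for other aldo-keto reductases to -0.09 for the steroid and prostaglandin list.

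The cell type marker lists went in different directions. Of all features, 22.3% passed as lower and 20.8% as higher. Of 6 measured proximal tubule markers, 5 fell and 0 rose, with medians of -0.77, -0.65 and -0.80 in mice 1, 2 and 3. Slc34a1 was at -0.97, -1.52 and -1.18 (mean -1.22 ± 0.278, SD, n = 3), with mouse 1 nearest to 0. Cubn was at -0.83, -0.95 and -0.86 (-0.88 ± 0.0644), also with mouse 1 nearest to 0. Gatm was at -1.27, -1.04 and -1.20 (-1.17 ± 0.117), with mouse 2 nearest to 0. The other falling markers, Slc22a6 at -0.59, -0.20 and -0.30 and Slc22a8 at -0.70, -0.36 and -0.75, were also nearest to 0 in mouse 2. Of 9 measured markers of loop, distal tubule and collecting duct, 3 fell and 2 rose, with a median of -0.01. Pvalb, Slc12a1 and Aqp3 were farthest below 0, at -1.58, -0.87 and -0.70, Scnn1g and Aqp2 were the higher ones, at 0.65 ± 0.192 and 0.29 ± 0.13 (Aqp2 did not pass without mouse 3), and Umod was listed at 0 on all arrays. Of 3 measured glomerular genes 1 fell, Nphs1 at -0.42 ± 0.265, which did not pass without mouse 2, and another 2 of the 7 listed were 0 on all arrays. Macrophage and dendritic cell markers rose in 8 of 8, with medians of 1.10, 0.77 and 0.90 in the 3 mice and Lyz2, C1qc and C1qa farthest from 0 at 1.69, 1.32 and 1.22. The part of these shifts in the members' ratios was not tested.

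Akr1c18 and Akr1b7 are also known from the adrenal cortex, which lies beside the kidney. Of 10 adrenal markers 7 had a row and 1 was measured on all arrays, the receptor Mc2r, which did not pass and whose 2 rows disagreed (-0.19 and 0.46), while Star, Cyp11a1 and Hsd3b1 were 0 on all arrays. Sex shapes the level of many kidney genes, and the labels do not give it. Of 4 measured male-biased kidney genes 3 fell and 1 rose, where 22.3% of all features passed as lower and 20.8% as higher. They were Acsm3 at -1.29 ± 0.0813, Odc1 at -0.49 ± 0.0934, Cyp4a12b at -0.28 ± 0.103, which did not pass without mouse 3, and Gusb at 0.46 ± 0.1 (SD, n = 3). Xist, the RNA of the inactive X chromosome, was at 0.05, 0.57 and 0.50 and passed as higher (limma, adjusted p = 0.0323), but not without mouse 2 or mouse 3. Its 2 rows had means of 0.24 and 0.50 and opposite signs in mouse 1, at -0.15 and 0.24. The Y-linked genes Kdm5d and Uty were at -0.20 ± 0.0312, a call lost without any 1 mouse, and 0.19 ± 0.23, not passing, and Eif2s3y was 0 on all arrays. The part of adrenal tissue or of sex in the members' ratios was not tested.

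Rows with identifiers near each member's were looked at because each member rests on 1 row. Whether identifiers follow position on the array was not checked. Among rows with identifiers within 10 of a member's row, 10 to 18 had ratios on all arrays, and their median of means ran from -0.11 beside Akr1c21 to 0.05 beside Akr1c13. By Euclidean distance over the 3 mice, among 7210 other named genes, Akr1c18 was nearest to Cmtm5 (distance 0.152), Sp5 (0.16) and Lypla1 (0.166), and 19 genes lay within 0.3 of it. Akr1b8 was nearest to Tbcb (0.0153), Zfpm1 (0.0185) and Galr2 (0.0308), and 731 genes lay within 0.3. With 3 points per gene, likeness of this kind is common near 0 and says little about a gene as close to 0 as Akr1b8.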

How the data were processed

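The values are the authors' deposited ratios of 3 two-colour arrays, a column per mouse; log base, direction, normalization, scanner and software: not given in the sources used here. Exact 0 filled 26.7 to 32.4% of cells and was treated as missing. Rows were named from the platform annotation through gene identifiers in RefSeq's GRCm38.p6 table (names, neighbour order and promoter windows only): 13738 of 16281 rows had 1 symbol, 13694 of these matched, 52 had several and 2491 none. Each array was centred on the median of its ratios, rows with ratios on all 3 arrays were kept and rows of a gene averaged, giving 8449 features, 7211 of them named genes. R 4.3.3 with limma 3.58.1 tested the 3 ratios against 0 (lmFit, eBayes with a prior SD of 0.134 and 4.85 prior degrees of freedom, two-sided, Benjamini-Hochberg over all features at 0.05). The pool counts as 1 control sample, so its own variation over mice, and dye bias, do not enter the error. Precision is limited by having 3 arrays; spot signals were not used here.

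The members, lists, tests and alternatives were chosen with earlier results of these data known. Named genes were every member, up to 3 passing genes farthest from 0 in each direction per companion list with the same sign in all mice, up to 3 farthest marker genes, and the 3 nearest genes to the highest and the lowest member; other genes named were picked with their values in view. Tried as alternatives were exact 0 kept, ratios on at least 2 arrays, rows singly, arrays scaled, no centring, a robust prior, an unmoderated one-sample test, removal of the least variable 20% of features, and each mouse left out. The scripts were tested on simulated data.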

Additional observations from a re-analysis of the deposited data

How the results depend on the processing

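With exact 0 kept as a ratio, 986 of 13241 features, 1 of 7 members (Akr7a5, 7.45% of all features) and 9 companion genes passed. The members' own rows held no 0, so their means moved only through centring, and more features entered the prior and the adjustment. The unmoderated test passed 0 features, 0 members and 0 companion genes, with 3060, 3 and 28 at an unadjusted p under 0.05 (limma, 4361 of all features). Leaving out 1 mouse gave 2202 to 4193 features, 6 or 7 members and 25 to 40 companion genes, and the lowest and highest means were -0.61 and -0.41 for Akr1a1, 0.30 and 0.37 for Akr1b8, -0.66 and -0.41 for Akr1c12, -0.56 and -0.27 for Akr1c13, -1.25 and -0.95 for Akr1c18, -0.97 and -0.61 for Akr1c21 and -0.80 and -0.69 for Akr7a5. Akr1c13 lost its call without mouse 2 and without mouse 3. Akr1c12 kept its call without mouse 3 only at the threshold (limma, adjusted p = 0.05 after rounding). No centring turned the larger side of the whole table, to 1863 higher and 1730 lower, from 1755 and 1883. No paired analysis was possible because the study has 1 group of mice, each set against the same pool. Each member rests on 1 row, and 3 arrays limit the precision.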
